A study of Oryza sativa with 2 samples.

Results

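The magnesium branch of chlorophyll synthesis was followed through 6 rice genes, each represented by 1 named probe set on the Affymetrix rice array, out of 17905 genes with a probe set. The genes were grouped by function, with earlier results of these data known. They were CHLH (LOC4332690), CHLD (LOC4334537), CHL9 (LOC4333259), PORA (LOC4337415), CHLG (LOC4338498) and CHLP (LOC4330711). All 6 had signals above the floor on both arrays, the floor being a log2 signal of 5.40, the median of all signals.

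Leaf RNA of 2 genotypes was compared, each on 1 array made from 10 plants aged 6 weeks. LRK1 060615 transgenic rice in the 9311 background was set against 9311 without the transgene. LRK1 encodes a receptor-like kinase with leucine-rich repeats, and 9311 is an indica variety. Both were kept untreated in a greenhouse at 28 °C with 14 h of light and 10 h of darkness. The promoter that drives the transgene and the number of transformation events behind the line are not stated in the labels. No symbol in the gene table used contains LRK, so the signal of the transgene itself was not checked. Since each genotype has 1 array, the differences have no replicate check and carry no p-value, and each statement compares these arrays only. Every ratio is LRK1 transgenic over control, on the log2 scale unless given as a fold.

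Chlorophyll and haem share a pathway as far as protoporphyrin IX. Insertion of magnesium by magnesium chelatase, an enzyme of the subunits H, D and I, commits the molecule to chlorophyll, whereas insertion of iron leads to haem. The magnesium porphyrin is then methylated and given an additional ring, and protochlorophyllide oxidoreductase reduces it to chlorophyllide in a step that needs light in flowering plants. Chlorophyll synthase finally attaches a long isoprenoid tail, which geranylgeranyl reductase converts to the phytyl form. In leaves the branch is tightly controlled, because its free intermediates generate toxic oxygen species in light.

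All 6 genes had a higher signal on the transgenic array, with ratios from 0.39 to 1.62 and a median of 0.69, against a median of 0.02 over the 13526 genes that reached the floor on both arrays. Of all those genes, 51.1% had a ratio above 0. PORA was the only one of the 6 that was at least 2-fold higher, where 6.82% of all genes were, and none was at least 2-fold lower, where 11.1% of all genes were. At a 1.5-fold limit the count was 4 of 6, namely CHLH, CHL9, PORA and CHLP, where 19.0% of all genes passed. Whether more RNA per cell or a different makeup of leaf cells lay behind a higher signal cannot be told apart in whole leaves.

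**Figure D1:**
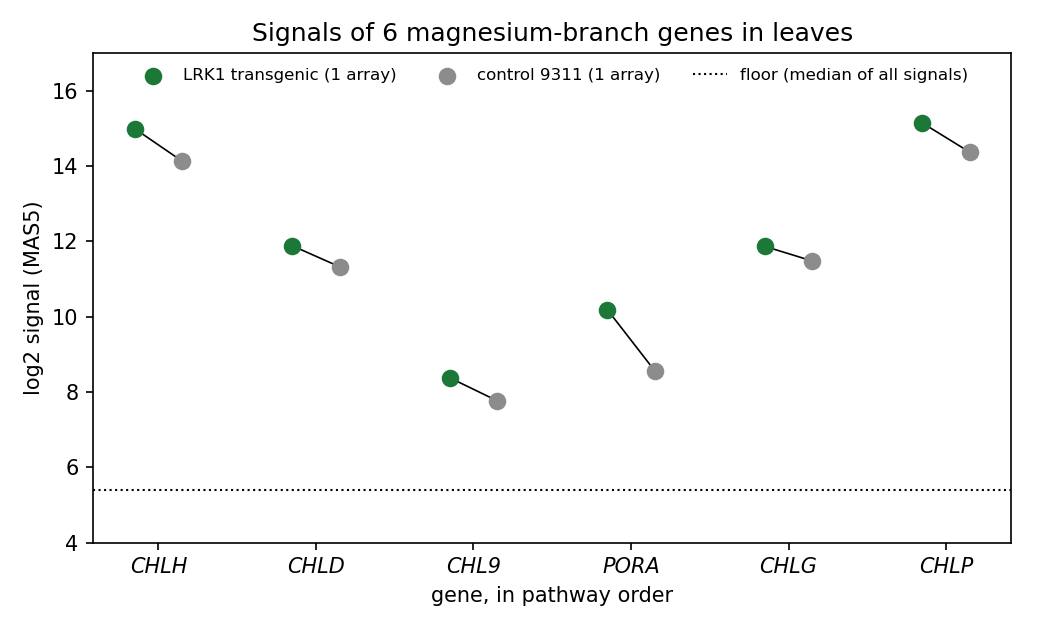
Log2 MAS5 signal (y axis) of the 6 genes in pathway order (x axis), with 1 point for the LRK1 transgenic array (green, left) and 1 for the control 9311 array (grey, right) and a line joining the pair. The transgenic point lies above the control point for each gene, with the widest step for PORA (10.18 against 8.57), and all points lie above the dotted floor of 5.40.

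CHLH encodes the large subunit of magnesium chelatase, which binds the porphyrin. Its log2 signal was 14.99 on the transgenic array and 14.13 on the control array, a linear signal of 32521 against 17922. This was 1.81-fold higher, under the 2-fold limit, and 9.71% of all genes had a higher ratio. CHLH was among the brightest features of both arrays, with 0.419% of probe sets brighter on the transgenic array and 0.842% on the control array. A second probe set annotated to CHLH had log2 signals of 1.22 on the transgenic and 2.63 on the control array, both below the floor. The value therefore rests on 1 annotated probe set. An unnamed probe set, tied to CHLH only by the cluster number in its identifier, had 6.08 on the transgenic and 5.62 on the control array. Its ratio was 0.46, with signals near the floor, and whether it measures CHLH was not tested.

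CHLD and CHL9 encode the other subunits of the chelatase. CHL9, also listed as CHLI, is the subunit that hydrolyses ATP, and CHLD, also listed as CHL1, assembles with it into the complex that drives magnesium insertion. CHLD had a log2 signal of 11.88 in transgenic leaves and 11.32 in control leaves, 1.47-fold higher. CHL9 had 8.37 in transgenic leaves and 7.77 in control leaves, 1.52-fold higher. The ratios of the 3 chelatase subunits thus lay within 0.30 of each other, from 0.56 to 0.86.

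The spread between probe sets of a single gene gives a scale for such differences. In 1951 genes with a pair of probe sets at the floor on both arrays, the ratios of the brightest pair differed by a median of 0.32 in size, with an SD of 0.68 across genes. The range over the 3 chelatase subunits, 0.30, was slightly below this median. A range over 3 genes and a difference within a pair are not like measures. The scale holds probe effects only and leaves out variation between plants and between labellings.

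PORA encodes a protochlorophyllide oxidoreductase, the light-requiring enzyme of the pathway, and in rice its transcript is best known from dark-grown seedlings and young leaf tissue. It showed the largest difference of the 6. Its log2 signal was 10.18 on the transgenic array and 8.57 on the control array, a linear signal of 1163 against 379, which was 3.07-fold higher. Of the 13526 genes, 186 (1.38%) had a higher ratio. The ratio of PORA was 0.76 above that of CHLH, the next highest, and a gap at least that wide was seen between the pair of probe sets in 19.5% of the 1951 genes.

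The partner gene PORB (LOC4349004), which encodes the oxidoreductase best known from green leaves, had a log2 signal of 14.56 in transgenic leaves and 13.66 in control leaves, 1.86-fold higher and short of the 2-fold limit. Its probe set is of a type that can bind several transcripts, so its value may not be specific to the gene. Both oxidoreductase genes thus had higher signals in transgenic leaves, and whether their ratios differ was not tested.

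CHLG encodes chlorophyll synthase, which joins chlorophyllide to its isoprenoid tail. It had the smallest difference of the 6, with a log2 signal of 11.86 on the transgenic array and 11.48 on the control array, 1.31-fold higher. Of all genes, 28.7% had a higher ratio than CHLG. CHLP encodes geranylgeranyl reductase, also known as LYL1 in rice, which supplies phytyl groups for chlorophyll and for tocopherol. Its log2 signal was 15.14 in transgenic leaves and 14.37 in control leaves, a linear signal of 36124 against 21127, or 1.71-fold higher. The steps of tail attachment therefore had ratios of 0.39 and 0.77. The 5 genes other than PORA spanned 0.47 on the log2 ratio scale, and 36.1% of the 1951 genes had a pair of probe sets that differed by at least as much. Here too a range over several genes is set beside a difference within pairs.

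**Figure D2:**
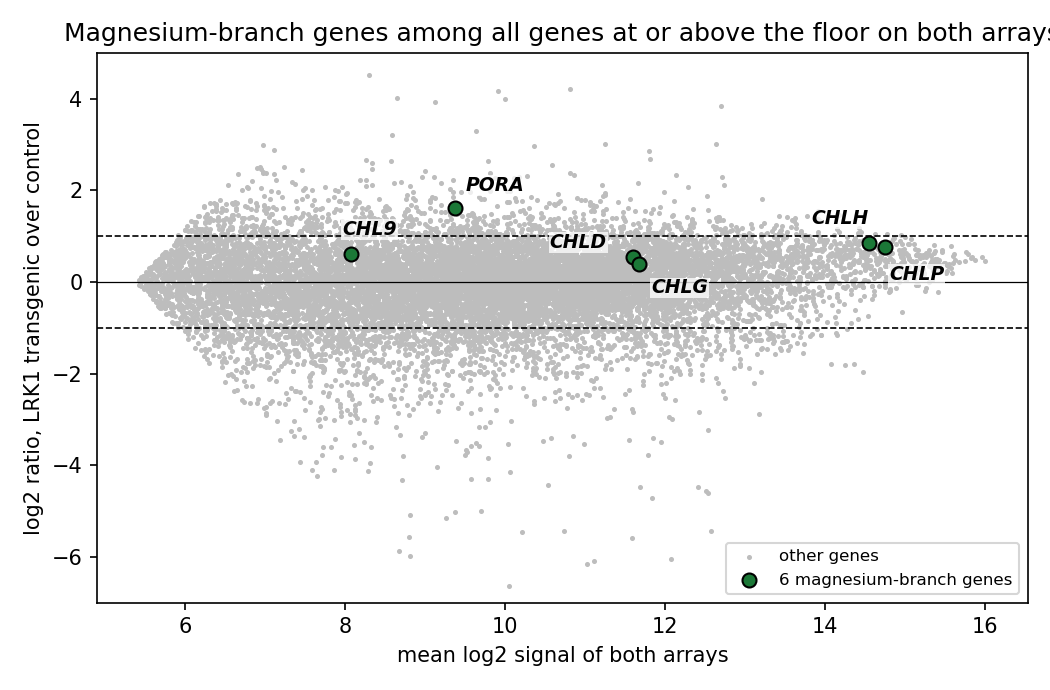
Log2 ratio of LRK1 transgenic over control (y axis) against the mean log2 signal of both arrays (x axis) for the 13526 genes that reached the floor on both arrays (grey), with the 6 magnesium-branch genes in green and dashed lines at a 2-fold difference. PORA (1.62) lies above the upper line, the other 5 genes lie between 0.39 and 0.86, and CHLH and CHLP lie at the bright end.

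Signal level moved with the ratios over all genes. In the brightest 25% of genes, which held CHLH, CHLD, CHLG and CHLP, the median ratio was 0.16 and 59.5% of ratios were above 0. In the dimmest 25%, which held CHL9, the median was -0.05, and in the next 25%, which held PORA, it was also -0.05. PORA therefore stood above genes of like signal by about its full ratio, while the 4 bright genes stood above theirs by less than their own ratios. Among 10142 genes within the range of mean signal of the 6 genes, 51.6% had a ratio above 0 and 6.07% were at least 2-fold higher. The part of signal level in the ratios of the bright genes was not tested beyond the scalings given next.

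The level of the arrays was not the same throughout. The median log2 signal was 5.56 on the transgenic array and 5.21 on the control array, and 57 of 63 bacterial spike probe sets were higher on the transgenic array, with a median ratio of 0.34 and an SD of 0.22 across probe sets. Signal at the 3' end over that at the 5' end was lower on the transgenic array in each of 5 housekeeping pairs at the floor. It ran from 0.78 on the transgenic against 0.83 on the control array for ubiquitin to 9.34 against 13.35 for an actin pair. A second actin pair had 6.95 against 9.45, and GAPDH had 2.16 against 3.87. The part of this difference between 3' and 5' signal in the ratios of the 6 genes was not tested.

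Under each of the 4 other scalings all 6 genes kept a ratio above 0 and PORA stayed the only one at least 2-fold higher. PORA had a ratio of 1.68 after quantile normalization, 1.62 after a loess fit, 1.39 with the median ratio of all probe sets (0.23) taken off and 1.28 with that of the bacterial spikes taken off. The matching shares of all genes at least 2-fold higher were 6.85%, 5.77%, 3.80% and 2.96%. CHLG was nearest to 0, at 0.05 with spike centring, where 32.0% of all genes had a ratio above 0. That share was 51.8% after quantile normalization, 47.7% after loess and 38.0% with median centring. CHLH and CHLP, the brightest of the 6, changed most under the scalings that follow signal level, to 0.52 and 0.41 after loess.

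**Figure D3:**
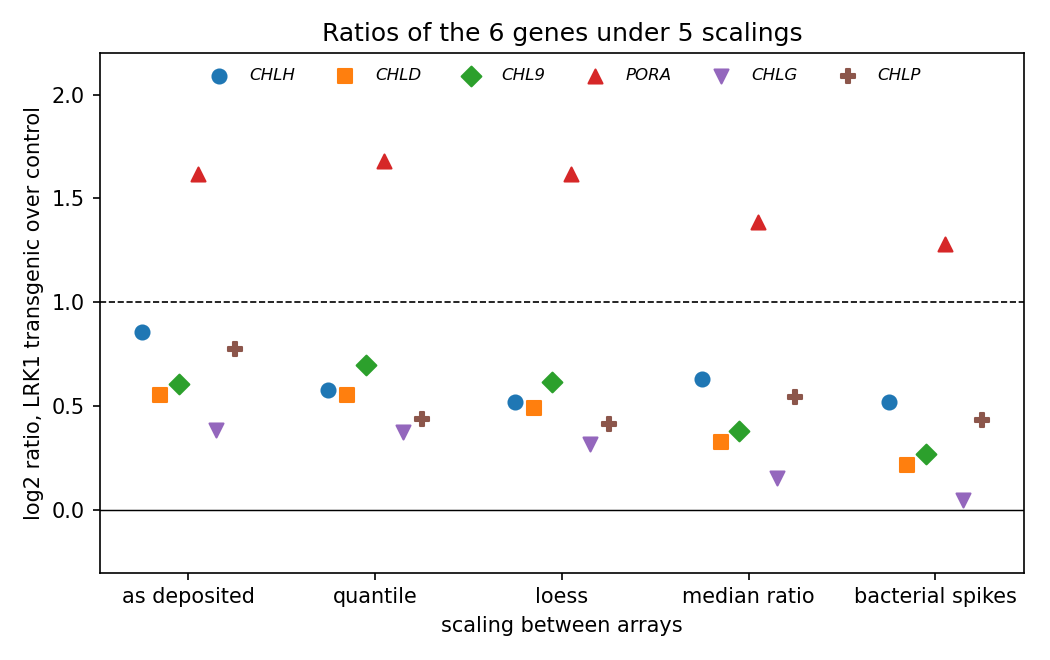
Log2 ratio of LRK1 transgenic over control (y axis) of each of the 6 genes under 5 scalings between the arrays (x axis), with a dashed line at a 2-fold difference. PORA lies between 1.28 and 1.68 and above the line throughout, and the lowest point of all is CHLG at 0.05 with centring on the bacterial spikes.

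Other genes of the branch, of the routes that feed it and of related steps were looked up by symbol. Among them are genes that are not enzymes of chlorophyll synthesis. These are the chlorophyll b reductase genes NYC1 and NOL, the haem oxygenase genes SE5 and HO2 and the factors GLK1 and GLK2. Of 52 names, 18 led to a gene in the table used, and 15 of these genes had a probe set. The other names were not analysed here, among them those of the methyltransferase, the cyclase and GUN4. Of the 15 genes, all at the floor on both arrays, 1 was at least 2-fold higher and none 2-fold lower, beside 6.82% and 11.1% of all genes. As deposited, 14 of the 15 had a ratio above 0, where 51.1% of all genes did. Fewer did under the 4 other scalings. Of 4 genes of the isoprenoid supply, 1 stayed positive after quantile normalization or loess and 2 with either centring. Of 2 genes on the haem side, 1 stayed positive under each of these scalings. Not in these counts are CAO and ISPE, found under other symbols and added after their values were seen. With them, 1 of 17 genes was at least 2-fold higher and 1, ISPE, was at least 2-fold lower. For the 15 genes, the median ratio was 0.49, against 0.69 for the 6 genes and 0.02 for all genes. No test of a difference between these lists was made.

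Chlorophyll b reductase starts the return of chlorophyll b to chlorophyll a and is encoded by NYC1 and NOL. NYC1 (LOC4327178) had log2 signals of 11.61 in transgenic and 11.32 in control leaves, a ratio of 0.29 that turned to -0.05 with spike centring. NOL (LOC4333604) had 10.49 in transgenic and 10.09 in control leaves, a ratio of 0.40, and its second probe set gave 0.64. Neither passed the 2-fold limit.

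Of the genes that lead to protoporphyrin, 4 were measured. PPOX1 (LOC4327918), a protoporphyrinogen oxidase gene for the last shared step before the chelatase, had a log2 signal of 11.58 on the transgenic array and 10.41 on the control array. It was 2.25-fold higher, and 1.78-fold higher at a ratio of 0.83 with spike centring. HEMD (LOC4331869), of uroporphyrinogen III synthase, came close to the limit at 1.97-fold higher. GSA (LOC4346136), which makes aminolevulinate, the first dedicated precursor, was the gene of the 15 with a lower signal in transgenic leaves, 10.97 against 11.53, a ratio of -0.56. A second, dimmer probe set of GSA went the other way, with 5.80 in transgenic leaves and 5.13, below the floor, in control leaves.

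On the haem side, the haem oxygenase genes SE5 (LOC4341462) and HO2 (LOC4333033), of which SE5 is known for making the phytochrome chromophore precursor from haem, had ratios of 0.16 and 0.61. SE5 came to -0.18 with spike centring. The plastid isoprenoid pathway makes the geranylgeranyl units for the chlorophyll tail, and 4 of its genes were measured under the names looked up. DXR (LOC4326153), for an early step, had a ratio of 0.77, similar in size to CHLP. ISPH (LOC4334003), ISPG (LOC4329911) and MCS (LOC4330320), for later steps, had 0.37, 0.10 and 0.11. The isoprenoid median of 0.24 became -0.06 after quantile normalization, -0.10 after loess and -0.10 with spike centring, so it has no settled direction. Another gene of the pathway, ISPE (LOC4327968), was found under a symbol outside the list and added after its value was seen. It had log2 signals of 8.12 in transgenic and 9.84 in control leaves, 3.29-fold lower, and its ratio of -1.72 lay between -1.65 and -2.06 with the 4 other scalings. With ISPE the median of the 5 isoprenoid genes was 0.11 as deposited and negative with each of the 4 other scalings, from -0.06 to -0.22.

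The Golden2-like factors GLK1 and GLK2 are known as activators of chloroplast and chlorophyll genes. GLK1 (LOC4340977) had log2 signals of 12.48 in transgenic and 11.72 in control leaves, a ratio of 0.76. GLK2 (LOC4326363) had 13.76 in transgenic and 12.92 in control leaves, a ratio of 0.85. The 3 dimmer probe sets of GLK2 gave ratios of 0.76, 1.41 and 1.62, so 2 of its 4 probe sets were past the 2-fold limit. Both factors kept positive ratios under all 4 other scalings.

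**Figure D4:**
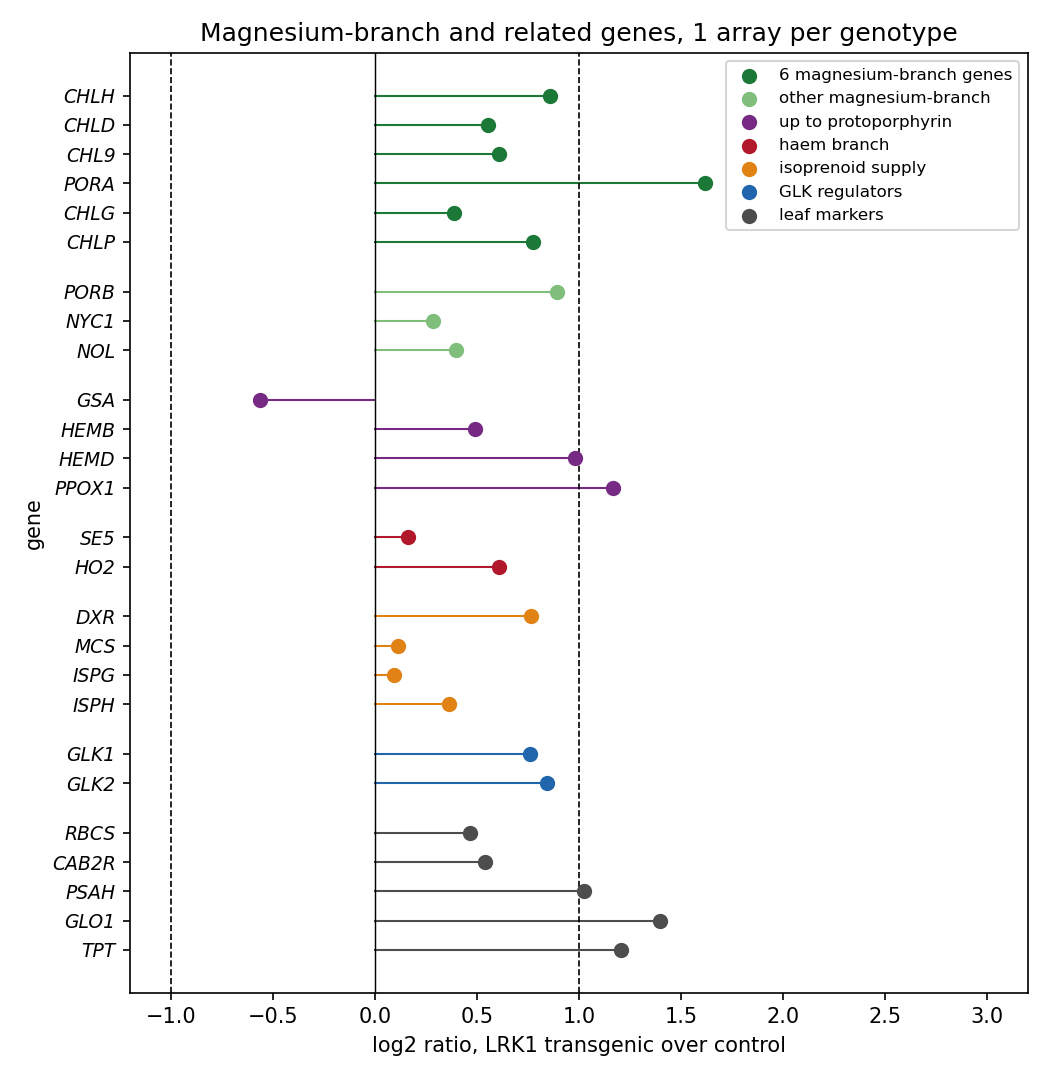
Log2 ratio of LRK1 transgenic over control (x axis) for the 6 magnesium-branch genes, 15 related genes and 5 leaf marker genes (y axis), coloured by list, with dashed lines at a 2-fold difference. PORA (1.62), PPOX1 (1.17) and 3 leaf markers lie past the upper line, and of the genes shown GSA (-0.56) is the one left of 0. Not shown are ISPE (-1.72) and CAO (0.71), which were added after their values were seen.

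Markers of leaf mesophyll were bright on both arrays and had higher signals in transgenic leaves, with positive ratios under all 5 scalings. Of 16 names looked up, 6 led to a gene and 5 of these genes had a probe set. Of the 5 measured, 3 were at least 2-fold higher in transgenic leaves, beside 6.82% of all genes. They were GLO1 of glycolate oxidase (2.63-fold), TPT of triose phosphate export (2.31-fold) and PSAH of photosystem I (2.04-fold). The count was 2 after quantile normalization (6.85% of all genes) or loess (5.77%), and 1 with median centring (3.80%) or spike centring (2.96%). RBCS of the Rubisco small subunit and CAB2R of the light-harvesting antenna had ratios of 0.46 and 0.54. These came near 0 under the scalings that follow signal level. RBCS had 0.06 after quantile normalization and 0.03 after loess, and CAB2R had 0.04 after each. The linear signals of the 5 added up to 204872 on the transgenic array and 124696 on the control array, and those of the 6 magnesium-branch genes to 77640 on the transgenic and 45063 on the control array. A second probe set of GLO1 had a ratio of -0.20. The part of these markers in the ratios of the 6 genes was not tested.

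Markers of other organs differed in signal. Both measured meristem markers, OSH1 and OSH43, were below the floor on both arrays, and OSH1 was listed at 0 on the control array. Of the seed markers 3 of 4 were below the floor on both arrays, and GLUA2 was measured at 11.60 in transgenic and 11.11 in control leaves. Of 3 root markers LSI2 was below the floor on both arrays, whereas LSI1 had log2 signals of 10.50 in transgenic and 10.40 in control leaves and NRT2.2 had 6.90 in transgenic and 6.42 in control leaves. Of 7 flower markers 4 were at the floor on both arrays, and of these MADS2 was 2.40-fold lower in transgenic leaves. The linear signals of the 7 flower markers summed to 1464 on the transgenic array and 1121 on the control array, of which MADS16 alone gave 1077 on the transgenic and 719 on the control array. Those of the other 6 summed to 387 on the transgenic and 402 on the control array.

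PORA was also set beside the 1940 genes with a usable symbol at the floor on both arrays. The nearest in ratio were Os-LYP1 (LOC4331522) at 1.61, KIN14L (LOC4340497) at 1.63 and SAT2 (LOC4331528) at 1.59. With 1 ratio from 2 arrays, this likeness is one of size only.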

How the data were processed

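The deposited log2 signals, 1 per probe set and array, were made by the authors with MAS5, per the submitters' processing notes. Its version and scaling target are not given in the sources available. That the scale is log2 was inferred from the range of values, 0 to 16.24. The 57258 probe sets other than 123 array controls were used. Of these, 22436 had 1 gene in the platform annotation, 95 had several and 34727 had none. Genes were named through the symbols of the gene table of assembly ASM3414082v1 (Oryza sativa Japonica). Its coordinates were used only for the order of genes along chromosomes in the closing observations. A gene other than the 6 was represented by its brightest probe set. Matches of FC1, MCS and MADS2 to genes of another function were dropped by hand.

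Both signals at the floor and a difference of at least 2-fold made a call. No test was run, since each genotype has 1 array. Spike centring used the 63 bacterial spike probe sets at the floor, and 6 below it were left out. Loess used statsmodels 0.14.6 with a span of 0.3. The 6 genes, the lists and the rules were chosen with earlier results of these data known. The rule for names took the 6 genes, all measured genes of the other magnesium-branch list, and from each other list up to 2 genes per direction past 2-fold, or the brightest where none passed. HEMD, GSA, HO2, DXR, ISPG, MCS, GLK1, the organ markers and all genes among the closing observations were named outside it, after their values were seen. For PORA it took the 3 genes nearest in ratio. Sequences were not used here. The number of arrays limits the precision.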

Additional observations from a re-analysis of the deposited data

How the results depend on the processing

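Results were recomputed under 10 alternative settings and under 1 more that was chosen after seeing the data. Only 5 of these, the 4 other scalings and an offset of 16 on the linear signal, could change the ratio of PORA, which has 1 probe set. Over them its ratio ran from 1.28 to 1.68 and stayed past 2-fold. A ratio was counted as moved where it changed by over 0.22, the SD across spike probe sets, since there are no replicates. Of the 33 recomputed ratios of the 6 genes that a setting could change, 17 moved and 16 did not. Median centring took 0.23 and spike centring 0.34 off every ratio, so each ratio under either centring had to count as moved.

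Centred on the median ratio, the ratios were 0.63 for CHLH, 0.33 for CHLD, 0.38 for CHL9, 1.39 for PORA, 0.16 for CHLG and 0.54 for CHLP, with a median of 0.46. Centred on the spikes they were 0.52, 0.22, 0.27, 1.28, 0.048 and 0.44 in the same order, with a median of 0.35. CHLH had 0.58 after quantile normalization and 0.52 after loess, and CHLP had 0.44 and 0.41. CHLH came to -0.27 as the median over its probe sets, 1 of which is below the floor on both arrays. Over probe sets at the floor on at least 1 array, the added alternative, it was again 0.86. With a 1.5-fold rule 4 of the 6 genes passed, where 19.0% of all genes did.

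Of the 15 related genes, 2 were past 2-fold after quantile normalization, 2 with the median over all probe sets and 2 with the added alternative. The count was 0 with median centring and 0 with spike centring, and 7 of these genes passed 1.5-fold as deposited. Their median was 0.26 with median centring and 0.16 with spike centring. Over all genes, 923 were higher and 1501 lower as deposited. Higher calls numbered 508 with median centring, 393 with spike centring, 1481 with a floor set at the 25th percentile, 479 with one set at the 75th and 2576 at 1.5-fold. Lower calls numbered 2482 with spike centring, 784 with a floor at the 75th and 2866 at 1.5-fold. Both centrings subtract a positive constant, so under them higher calls can only be lost. No paired analysis was possible because each genotype has 1 array.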

Other observations

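Geranylgeranyl units and phytyl groups also go into tocopherols and carotenoids. VTE4 (LOC4330437), a tocopherol methyltransferase gene, had log2 signals of 14.23 in transgenic and 13.17 in control leaves, 2.09-fold higher. The other 4 scalings left it short of 2-fold, at ratios from 0.72 to 0.92. VTE1 (LOC4329007), of tocopherol cyclase, had a ratio of -0.12. HGGT (LOC4341663), of tocotrienol synthesis, was below the floor on both arrays. The 6 probe sets of VTE2-1 (LOC4341727), which uses phytyl groups, disagreed, with ratios from -1.45 to 0.88. Of the 5 carotenoid genes measured none was past 2-fold, where 6.82% of all genes were at least 2-fold higher and 11.1% lower. The phytoene synthase gene PSY1 (LOC4342137) came nearest, at 1.98-fold higher, and its 3 probe sets had ratios from 0.78 to 0.98. PSY2 (LOC4352846) had 0.18, which was negative with each of the 4 other scalings.

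The gene listed as CAO (LOC4349433), of chlorophyll b synthesis, had log2 signals of 14.63 in transgenic and 13.91 in control leaves, a ratio of 0.71. It was added after its value was seen.

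The genes next to the 6 on the chromosomes were looked up. Of 12 neighbours, 9 had a probe set and 7 were at the floor on both arrays. Of those 7, none was at least 2-fold higher and 1 was at least 2-fold lower, beside 6.82% and 11.1% of all genes. The lower one was LOC4334536 beside CHLD, with a ratio of -1.25. The chelatase genes CHLH, CHL9 and CHLD share a chromosome but are not neighbours, with 559 protein-coding genes between CHLH and CHL9 and 1222 between CHL9 and CHLD.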
